A study of Mus musculus with 4 samples.

Results

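Lineage barcodes are heritable DNA tags, delivered by lentivirus, that pass from an infected tumor cell to all of its descendants. The 13 barcodes described here marked lineages of untreated PB3 cells whose most frequent chromatin cluster was 9, 14 or 16. None of the 13 was called in an eribulin-treated cell of the multiome experiment. They were chosen by 3 measured values: at least 10 untreated multiome cells, 0 eribulin multiome cells, and a most frequent cluster of 9, 14 or 16 (ties to the lowest number). They are 13 of the 490 barcodes called in any library and 13 of the 107 lost barcodes among 125 with at least 10 untreated multiome cells. Since all 3 values were used in the choice, they are given below as a description and without a test.

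PB3 is a mouse mammary tumor cell line. The multiome libraries held 9583 untreated nuclei and 8114 nuclei from cells given 500 nM eribulin for 72 h and 48 h of recovery, in 4 rounds. A second pair of libraries, 9361 untreated and 16724 eribulin cells profiled by scATAC with the same treatment, was not used in the choice. Whether both pairs came from the same cultures is not stated, so scATAC may repeat the assay alone. Each group was 1 library, so the spread between cultures could not be measured, and intervals are exact 95% binomial (Clopper-Pearson) intervals that cover counting error only.

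Eribulin blocks the growth of microtubules and thereby arrests cells in mitosis. Sequencing a barcoded population counts how often each lineage was sampled; a barcode that is not seen shows that the lineage was rare or absent among the sampled cells, not what became of it. ATAC-seq adds the chromatin state of each tagged cell: the Tn5 transposase cuts open DNA, and cells with like patterns of cuts in peaks fall into the same cluster. The clusters carry numbers only, as no gene or peak values were used here.

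The barcode sequences are shown because each name stands for 1 of them, and because they show which members share a part. A barcode has 48 bases: a short part of 14 bases, the linker tggt at bases 15 to 18 counted from the first base, and a long part of 30 bases. Names give the number of the short part and then of the long part. The capitals mark the short part. Shown are the 3 largest members of clusters 9 and 14, both members of cluster 16, and a further member with the same short part as one of these.
21-67560: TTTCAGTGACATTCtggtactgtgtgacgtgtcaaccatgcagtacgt
14-67938: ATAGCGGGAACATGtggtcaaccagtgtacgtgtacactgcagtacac
13-62836: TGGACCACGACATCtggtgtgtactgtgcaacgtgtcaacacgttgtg
22-14328: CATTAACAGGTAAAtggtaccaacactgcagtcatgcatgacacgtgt
61-88872: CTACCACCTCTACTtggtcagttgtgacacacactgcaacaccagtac
71-3610: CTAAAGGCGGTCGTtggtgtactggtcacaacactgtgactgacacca
18-67263: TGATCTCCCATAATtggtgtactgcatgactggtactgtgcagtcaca
71-29939: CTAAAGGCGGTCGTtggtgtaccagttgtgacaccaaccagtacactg
71-66188: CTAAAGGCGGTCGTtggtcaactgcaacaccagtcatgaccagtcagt

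The 13 members used 11 short parts. Barcodes 71-66188, 71-3610 and 71-29939 carried the same short part, CTAAAGGCGGTCGT, which occurred in 16 of the 484 barcodes of the untreated multiome library. They were based in clusters 9, 14 and 16 respectively, so the shared part did not go with a shared cluster. Their long parts were unlike each other. Over the 78 pairs of members the long parts differed at 12 to 28 of the 30 bases, with a median of 24. The closest pair was 71-66188 and 18-67263, at 12 differences. The nearest of all 490 barcodes seen lay 10 differences away from members 14-67938, 71-66188 and 61-88872 and 12 away from each of the others. Every one of the 100000 long parts in the list was built from the pairs AC, CA, GT and TG, so that each has 15 of its 30 bases as G or C. Base composition therefore varied between members through the short part alone, from 28.6% G or C in the short parts of 22-14328 and 95-57159 to 57.1% in those of 13-62836, 50-30721 and the 3 members that share CTAAAGGCGGTCGT.

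Together the members marked 479 of the 4772 untreated multiome cells with 1 called barcode (10.0%, 9.20 to 10.9). Their sizes were uneven. Barcode 22-14328 alone had 182 cells (3.81%), 38.0% of all member cells and more than any other barcode of the library. Next came 21-67560 with 49 cells, 14-67938 with 48, 13-62836 with 42, 71-66188 with 30, 69-83753 with 23 and 61-88872 with 21. These 7 members held 395 of the 479 cells. The remaining 6 were small: 18-67263 had 17 cells, 95-57159 had 16, 71-29939 had 15, 50-30721 had 14, and 63-20707 and 71-3610 had 11 each. By home, as the most frequent cluster is called from here on, 8 members with 233 cells belonged to cluster 9, 3 with 214 cells to cluster 14 and 2 with 32 cells to cluster 16.

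The loss after eribulin was first set against what the counts can show. Of the 15 barcodes of at least 10 cells with a home in clusters 9, 14 and 16, 13 had no eribulin multiome cell (86.7%, 59.5 to 98.3), beside 85.6% of all 125 barcodes of that size. The share was thus close to that of the whole library. It was 83.9% of 56 barcodes based in clusters 2 and 4, 91.7% of 24 based in cluster 3, 85.7% of 14 based in cluster 6 and 81.2% of 16 based in cluster 8. These differences are small beside their counting intervals, and none was tested.

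At unchanged shares the members would have had 140 of the 1391 called eribulin multiome cells, in place of 0. For barcode 22-14328 the number was 53.1 cells, for 21-67560 it was 14.3, for 14-67938 it was 13.99 and for 13-62836 it was 12.2. The smallest members, 63-20707 and 71-3610, would have had only 3.21 cells each. A count of 0 allows up to 3 counts, or 0.216% of the called cells. The measured untreated share was above this limit for 13 of 13 members, but also for 103 of all 107 lost barcodes, or 82.4% of the 125, since a minimum of 10 cells already lies close to the limit. With the exact upper bound of 0 cells, 0.265%, in place of 3 counts it was above for 11 members. The share exceeded the limit of 0.216% by 17.7-fold for 22-14328 and by 4.76-fold for 21-67560, but by only 1.07-fold for 63-20707 and 71-3610. Once the counting error of the untreated share is taken in as well, its lower bound stayed above the limit for 7 members. This combination of 0 eribulin cells and a bound above the limit held for 47.2% of the 125 barcodes. Among the 107 lost barcodes it held for 59, a share close to that of the members. The 7 are those with at least 20 cells: 22-14328, 21-67560, 14-67938, 13-62836, 71-66188, 69-83753 and 61-88872. For 18-67263, 95-57159, 71-29939, 50-30721, 63-20707 and 71-3610, a lower share after eribulin was not detectable at this depth.

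The limit also rests on which cells form the total. In the eribulin multiome library 5 expanded barcodes took 1244 of the 1391 called cells, which lowers the share of every other lineage. Among the other 147 called cells, 3 counts are 2.04%. Only barcode 22-14328, with its 3.81% (3.29 to 4.40) without treatment, exceeded that. Taken singly, each of the remaining 12 members had an untreated share below this limit, so its loss was not detectable in this way. The untreated shares were of all called untreated cells, with the 5 barcodes not left out, so the totals were not matched. The 12 members together were not compared with the limit. Calls were also rarer after treatment. A barcode was assigned to 49.8% of untreated multiome cells but to 17.1% of those given eribulin, and the part of this difference in the losses was not tested.

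Barcodes just outside the rule showed how narrow the line was. Barcode 92-83570, based in cluster 9 with 67 untreated cells, was called in 1 eribulin cell, where an unchanged share would give 19.5. Barcode 69-34430, also based in cluster 9 with 28 untreated cells, was called in 1 eribulin cell against 8.16. A single cell thus kept each of them out of the set. That cell is 0.072% (0.002 to 0.400) of the called eribulin cells, an interval below the untreated share of 92-83570 (1.40%, 1.09 to 1.78) and overlapping that of 69-34430 (0.587%, 0.390 to 0.847). The cell of 92-83570 lay in cluster 0, the main eribulin cluster of this experiment, and had 8852 cut sites in peaks and a nucleosome signal of 0.774. The cell of 69-34430 lay in cluster 9, the home of its barcode, and had 2186 cut sites and a nucleosome signal of 0.690. On the side of size, the largest barcodes left out were 36-26254, based in cluster 9, and 71-60126, based in cluster 16, with 8 untreated and 0 eribulin cells each.

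The scATAC libraries, which the rule did not use, held few called cells. Member barcodes were called in 2 of 29 untreated scATAC cells (6.90%, 0.846 to 22.8) and in 0 of 84 eribulin scATAC cells, a count that leaves room for a share of up to 3.57%. These intervals overlap, so within scATAC alone a lower share was not detectable. At the untreated multiome share of 10.0%, 8.43 of the 84 cells would carry a member. Of the 84, 80 carried one of the same 5 expanded barcodes, which left 4 for all other lineages. The 2 untreated cells belonged to 71-66188, with 6262 cut sites, and to 18-67263, with 4140. They lay in clusters 3 and 2, neither of them the home that the multiome cells gave (clusters 9 and 16).

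The home clusters themselves held few cells after eribulin, a measure that needs no barcode call. Clusters 9, 14 and 16 together held 1718 of the 9583 untreated multiome cells (17.9%, 17.2 to 18.7) and 18 of the 8114 eribulin ones (0.222%, 0.132 to 0.350). In scATAC they held 1872 of 9361 untreated cells (20.0%, 19.2 to 20.8) and 30 of 16724 eribulin cells (0.179%, 0.121 to 0.256). Cells were thus scarce in these clusters in both protocols, although the clusters were drawn on all libraries together. Cluster 16 accounted for 26 of the 30 eribulin scATAC cells, while clusters 9 and 14 had 2 each. The 18 eribulin multiome cells were 5 in cluster 9, 7 in cluster 14 and 6 in cluster 16. Of these 18, 3 had a called barcode, none of them a member, as the rule requires: 1 was the cell of 69-34430 in cluster 9, and 2 in cluster 16 carried 76-49517, the barcode most frequent after eribulin.

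Members kept to their home to very different degrees. The share of a member's cells in its home had a median of 68.8% (range 33.3% to 85.7%), beside a median of 69.2% (27.3% to 91.7%) over all 125 barcodes. It passed 50% in 11 of the 13 members (84.6%), beside 85.6% of the 125, so the members were about as pure as other lineages of that size. In all, 343 of the 479 cells lay at home and 136 elsewhere. Since the home was chosen on the same cells, the share was also computed with the home of each cell taken from the other cells of its barcode. The median remained 68.8%, but for 61-88872 the share was 0.0% in place of 33.3%, because without any 1 of its cells in cluster 14 that cluster ties with cluster 6.

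Among the members of cluster 9, barcode 21-67560 had 42 of its 49 cells there (85.7%, 72.8 to 94.1) and 50-30721 had 12 of 14 (85.7%, 57.2 to 98.2). Barcode 69-83753 followed with 18 of 23 (78.3%), 14-67938 with 36 of 48 (75.0%) and 95-57159 with 11 of 16 (68.8%). Less concentrated were 13-62836 with 28 of 42 (66.7%), 63-20707 with 7 of 11 (63.6%) and 71-66188 with 14 of 30 (46.7%, 28.3 to 65.7). The interval of 71-66188 lay wholly below that of 21-67560. Its 16 other cells were spread over 6 clusters, with 6 in cluster 3 and 5 in cluster 2.

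In cluster 14, barcode 22-14328 had 139 of 182 cells (76.4%, 69.5 to 82.3) and 71-3610 had 6 of 11 (54.5%). Barcode 61-88872 was based there by a single cell: it had 7 of 21 cells in cluster 14 (33.3%, 14.6 to 57.0), 6 in cluster 6 and 5 in cluster 3. Its place in the set is therefore not secure. In cluster 16, barcode 18-67263 had 14 of 17 cells (82.4%, 56.6 to 96.2) and 71-29939 had 9 of 15 (60.0%, 32.3 to 83.7).

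The cells away from home did not all go to the same place. For the members of cluster 9, 65 of 233 cells were away, 22 of them in cluster 2 (33.8%, 22.6 to 46.6), 14 in cluster 6 and 10 in cluster 8. All other called cells outside cluster 9 had 40.0% (38.5 to 41.5) in cluster 2, within that interval. These other cells include those at home in the clusters compared, so their shares follow the sizes of the clusters. Cluster 3 took 7 of the 65 (10.8%, 4.44 to 20.9), beside 21.5% (20.3 to 22.8) of the other cells. Of these 7, 6 were of 71-66188 and 1 of 14-67938. The interval treats cells of the same lineage as independent.

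The 3 members of cluster 14 showed another distribution, with cluster 6 in place of cluster 2. Of their 62 cells away from home, 25 lay in cluster 6 (40.3%, 28.1 to 53.6), against 15.1% (14.1 to 16.2) of the other called cells outside cluster 14. Only 7 lay in cluster 2 (11.3%, 4.66 to 21.9), against 38.4% (37.0 to 39.9), and all 7 belonged to 22-14328. For both clusters the intervals lay apart, but the other cells again include those at home in clusters 2 and 6. The intervals also treat cells of the same lineage as independent. Barcode 22-14328 supplied 18 of the 25 cells in cluster 6, 61-88872 supplied 6 and 71-3610 supplied 1, so the value is largely that of a single lineage. Barcode 71-3610 had more, 3, in cluster 3. The members of cluster 9 had 21.5% (12.3 to 33.5) of their away cells in cluster 6, an interval that overlaps that of the cluster 14 members. For cluster 2 the 2 intervals lay apart. Cluster 6 was also the second cluster of 21-67560, 14-67938 and 95-57159, based in cluster 9. Of the 43 cells of 22-14328 away from home, cluster 6 had 41.9% (27.0 to 57.9), cluster 3 had 9 cells, cluster 2 had 7 and cluster 9 had 6. The 18 cells in cluster 6 had a median of 4686 cut sites and the 139 at home 5728, and the part of depth in their placing was not tested. The members of cluster 16 had 9 cells away, too few to compare.

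Few member cells lay in the clusters that were more frequent after eribulin. Of the 479 cells, 2 (0.418%, 0.051 to 1.500) were in one of the 8 clusters 0, 1, 5, 7, 10, 11, 12 and 13, which held larger shares of the eribulin libraries in both protocols. Barcode 13-62836 had 1 cell in cluster 0 and 71-66188 had 1 in cluster 10. The other called untreated cells had 29 of 4293 there (0.676%, 0.453 to 0.969), and the intervals overlap. In cluster 15, which holds cells of both treatments, there were 5 member cells, 1 each from 14-67938, 69-83753, 95-57159, 63-20707 and 61-88872. The cluster had 59 called untreated multiome cells. Members marked 10.0% of all such cells, so 5 of 59 is about their share.

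Seen from the clusters, the members made up 359 of the 759 called cells in clusters 9, 14 and 16 (47.3%, 43.7 to 50.9). Members at home were 168 of 458 called cells in cluster 9 (36.7%), 152 of 247 in cluster 14 (61.5%) and 23 of 54 in cluster 16 (42.6%). Lineage diversity was expressed as an effective number of barcodes: how many equally frequent barcodes would make 2 random cells match as often as observed. It was 24.9 in cluster 9, 3.15 in cluster 14 and 9.0 in cluster 16. In clusters 2, 3, 6 and 8 it was 71.3, 80.3, 20.4 and 36.4.

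Cluster 14 thus had the fewest effective lineages of these 7 clusters, and 22-14328 alone accounted for it. That barcode marked 56.3% (49.8 to 62.6) of the called cells there, whereas the most frequent barcode of cluster 9, 92-83570, marked 12.4% and that of cluster 16, 18-67263, marked 25.9%. Without 22-14328, the other 108 called cells of cluster 14 carried 76 different barcodes, and the effective number rose from 3.15 to 90.3. Estimated from pairs of cells, it can exceed the number of barcodes seen when most have few cells. The largest barcode was left out for cluster 14 alone, so 90.3 does not compare with the values of the other clusters. The cluster therefore consisted of 1 large lineage and many lineages with few cells each. The 2 kinds of cell differed in depth: 22-14328 cells in the cluster had a median of 5728 cut sites and the cells of other barcodes 8085.5, while cells called negative there had 5881.5. Cells called doublet were 3.03% of cluster 14, 5.47% of cluster 9 and 7.09% of cluster 16, beside 6.98% of the library. The part of depth and of doublets in the makeup of the cluster was not tested. Cells with 1 called barcode made up 53.5% of cluster 14, 41.1% of cluster 9 and 38.3% of cluster 16.

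The position of the home cells within their cluster was read from the deposited UMAP, a map that comes from the same peaks as the clusters. Of the 30 nearest called cells of the same cluster, 9.76% carried the same barcode for 21-67560, where its share of the cluster gives 8.97%. For 14-67938 it was 10.5% against 7.66%, and for 13-62836 it was 9.17% against 5.91%. The ratios of these 3 barcodes were 1.09, 1.37 and 1.55, around the level of other lineages. Over the 13 members the ratio had a median of 1.21 and lay above 1 in 10 of them, beside a median of 1.27 and 70.4% of the 125 barcodes. It was highest in small members, 2.90 in 63-20707 with 7 home cells and 2.35 in 95-57159 with 11. It was 0.946 in 69-83753 and 0.781 in 61-88872, and none of the neighbours matched in 71-3610. Barcode 22-14328 had a ratio of 1.08, and its share of 56.1% limits how high a ratio can go. In cluster 16 the ratios were 1.21 in 18-67263, which is the median of the 13, and 1.03 in 71-29939. That cluster has only 54 called cells, so 30 neighbours take in much of it and hold the ratio near 1. The lost lineages of clusters 2 and 4, 3, 6 and 8 had median ratios of 1.26, 1.25, 1.52 and 1.47. The members of cluster 9 were centred between -1.53 for 71-66188 and 1.07 for 63-20707 on the first UMAP axis, where the middle 50% of the cluster's called cells spanned -1.46 to -0.177.

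The depth of the member cells was close to that of the library apart from cluster 16. The median of all member cells was 5309 cut sites in peaks (quartiles 3470.5 and 8461), and that of the other called cells was 5437 (3643 and 8436). The members of cluster 14 had a median of 5965 and those of cluster 9 of 5057. Barcode 71-3610 was the deepest member, with a median of 8873 over 11 cells. The members of cluster 16 were shallow: the median was 2055 in 18-67263 (quartiles 1849 and 3282) and 3253 in 71-29939 (2503 and 5741), and only 6 of their 32 cells exceeded the library median of 5217. Low depth was a trait of cluster 16 as a whole, with 3642 in the other called cells and 2391 in its negative cells. The 9 cells of these members outside cluster 16 had a median of 4092 cut sites, against 2134 in the 23 at home. This contrast mixes 2 barcodes: 6 of the 9 cells were of 71-29939, and 14 of the 23 were of 18-67263. At home their medians were 2592 and 2050.5 cut sites respectively. The part of depth in the clustering of these cells was not tested.

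The nucleosome signal is the ratio of fragments spanning 1 nucleosome to shorter fragments free of nucleosomes, so that a lower value means a larger part of short fragments. Its median was 0.869 (quartiles 0.790 and 0.953) in member cells and 0.913 (0.819 and 1.01) in the other called cells. It lay below 0.913 in 12 of the 13 members, beside 50.4% of the 125 barcodes. The members' homes had low values in general, with 0.857 over all called cells of cluster 9, 0.870 in cluster 14 and 0.847 in cluster 16. Against the other called cells of the same cluster, the home cells of 7 members were lower and those of 6 were higher. The lost lineages based in cluster 6 had a median of 0.868, those based in cluster 3 had 0.883, those based in cluster 8 had 0.897 and those based in clusters 2 and 4 had 0.963. A value below 0.913 was thus shared by the lost lineages of all these homes except clusters 2 and 4.

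Among the member cells in clusters 2, 3, 6 and 8, those in cluster 2 differed most from the median of 0.869 over all member cells. The 32 member cells in cluster 2 had a median of 0.954 (exact interval of the median 0.901 to 1.01), and the other called cells of cluster 2 had 0.978. In cluster 6 the 41 member cells had 0.836 and the other cells 0.843, and in cluster 3 the 25 member cells had 0.838 and the other cells 0.873. In cluster 8 the 13 member cells had 0.870 and the other cells 0.897. The intervals of the member medians in clusters 3, 6 and 8 all include 0.869, so no shift towards those clusters could be told. Within the single lineage 22-14328 no difference between clusters could be told. Its median was 0.873 in its 139 cells in cluster 14 and 0.855 in 18 cells in cluster 6. It was 0.838 in 9 cells in cluster 3 and 1.02 in 7 cells in cluster 2. The interval of the last, 0.824 to 1.33, includes the value of cluster 14, and that of its cells in cluster 3, 0.763 to 0.905, includes both the value at home and that of the other cells of cluster 3.

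Single members differed more. Barcode 95-57159 had the highest median, 1.01 (0.873 to 1.05) over 16 cells, and it was 1.02 in its 11 home cells, where the other called cells of cluster 9 had 0.856. The lowest median was 0.807 (0.778 to 0.856) in 71-29939, followed by 0.812 in 61-88872, 0.822 in 71-66188 and 0.827 in 71-3610. Barcode 21-67560 had 0.836 (0.769 to 0.870) and 14-67938 had 0.894 (0.822 to 0.947), so that 2 large members of the same cluster overlapped in their intervals. The interval of 95-57159 lay above that of 21-67560 and overlapped that of 14-67938. These extremes were picked out of 13 members, most of them small. The enrichment of cuts at transcription start sites had a median of 5.06 in member cells and 5.001 in the other called cells, and ran from 4.67 in 63-20707 to 5.30 in 71-29939.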

How the data were processed

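Chromatin accessibility was profiled in 4 libraries of PB3 cells, grouped by title. Per the series' design text, the authors made peak counts with cellranger-arc 1.0.0 (multiome) and Cell Ranger ATAC (scATAC) on mm10 and used Signac 1.1.1; how barcodes were called is not stated in the sources used here. The deposited counts per cell are cut sites in peaks, detected peaks and gene activity, without normalization. The deposited nucleosome signal and TSS enrichment are ratios per cell, and the deposited UMAP positions are a unitless score. Cluster numbers were used as given. Barcode names took 3 forms for no stated reason: without hyphens in the untreated multiome library, and in the eribulin one with hyphens (1019 cells) or with hyphens and a sequence (372 cells). They were joined by their part numbers, on which the counts of 0 rest. All 490 joined names were in the barcode list.

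Barcodes were compared among cells with 1 called barcode. Negative, doublet, multiplet and unmapped cells were left out. The total depth was 61629245 cut sites in the untreated and 49446970 in the eribulin multiome library, and 84615925 and 127710435 in scATAC. Medians, exact intervals, shares of 30 UMAP neighbours and sequence differences were computed with Python 3.11.15, pandas 2.3.3, numpy 2.4.6 and scipy 1.17.1. The code was tested on simulated data. No test between groups was made, as each group is 1 library and cells are not replicates. The limit of a 0 is 3 counts. Of the droplet barcodes, 123 occurred in both multiome libraries, among them those of 2 member cells. Only 6 of the 123 had a called lineage barcode in both libraries, and none of the 6 had the same one. No droplet shared by any other pair of libraries was called in both, so these could not be compared.

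The members, and the rules here, were chosen with earlier results of these data known. Named are members with at least 20 cells, the largest of each cluster, the highest and lowest in each measure, and those found in scATAC, and smaller ones where few. Sequences are those of the 3 largest members per cluster and of members sharing a short part with them. Other limits on size, home, depth, denominators and neighbours were tried.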

Additional observations from a re-analysis of the deposited data

How the results depend on the processing

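No paired analysis was possible because each group is 1 library and no test was made. With a minimum of 20 cells the members numbered 7 in place of 13, which follows from the stricter limit. As a share of all untreated multiome cells, uncalled ones included, member cells were 4.998% in place of 10.0%, by construction. The median of 5309 cut sites became 4824 without barcode 22-14328, the largest member. The number of members whose untreated share exceeded the limit of a 0 fell from 13 to 1 with the 5 most frequent eribulin barcodes left out of the total, to 4 with only eribulin cells named by a sequence, and to 7 with the lower bound of the untreated share, an alternative chosen after seeing the data. The first 2 of these follow from the smaller totals of 147 and 372 cells. With clusters 9, 14 and 16 counted as 1, the members numbered 14: all 13 remained and 37-59849, tied between clusters 3 and 14 with 4 of 11 cells each, was gained. With over 50% required in the 3 clusters, 61-88872 and 71-66188 were lost. The other alternatives stayed within 1.5 times the count or within the interval of the value. Also chosen after seeing the data were the leave-out of shared droplets, which gave a share of 10.1%, and the home taken from the other cells. Depth limits the 6 members with fewer than 20 cells most, and scATAC, with 29 and 84 called cells, throughout.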
